A study of Mus musculus with 27 samples.

Results

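The laser-microdissected liver of mice at gestation day 8 (dpc8, days post coitum) was compared between lobular zone 1, which surrounds the portal vein (the PV zone of the study), and zone 3, which surrounds the central vein (the CV zone). Each zone was represented by 3 RNA-seq libraries, so the comparison rests on 6 of the 27 libraries of the series. Of the 21823 genes in the table, 11312 had an FPKM (fragments per kilobase of transcript, scaled to the mapped fragments of the library) of at least 1 in 3 or more of these 6 libraries and were tested. All mice were wild-type females of the strain labelled C57BL/6 (C57BL/6N in the methods of the study), aged 8 to 14 weeks per the methods, with no treatment given in the labels. The other groups used below were zone 2 at dpc8, which lies between the outer zones, and zones 1 and 3 of non-pregnant (NP) mice and of mice at dpc16, each with 3 libraries. Every library came from cryosection areas of 2 mm2 cut by laser, so each is a bulk sample of hepatocytes together with the vessels, ducts and sinusoidal cells of that area. In such samples fewer cells of a type and less RNA per cell cannot be told apart. The labels do not say which libraries came from the same mouse, and the p-values measure the spread between these libraries.

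Blood enters the liver lobule at the portal vein and leaves at the central vein, so hepatocytes along this axis meet falling oxygen and nutrients and divide the metabolic work between them. Periportal hepatocytes are known for gluconeogenesis, urea synthesis and amino acid breakdown. Pericentral hepatocytes are known for glutamine synthesis, bile acid synthesis and cytochrome P450 metabolism, and many of their genes are targets of Wnt/beta-catenin signalling fed by Wnt ligands from the central vein endothelium.

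The marker genes placed the 6 libraries as labelled. Cyp2f2, a periportal P450 enzyme, read 564.5, 1183 and 1296 FPKM in zone 1 replicates 1, 2 and 3 and 9.24, 19.1 and 20.0 FPKM in zone 3. Sds, serine dehydratase, read 258, 351 and 272.5 FPKM in zone 1 and 5.15, 4.09 and 1.34 FPKM in zone 3. Glul, the glutamine synthetase of the layer next to the central vein, read 74.4, 32 and 25.6 FPKM in zone 1 and 2697, 2042 and 2621 FPKM in zone 3. Slc1a2, a glutamate transporter, read 1.28, 4.1 and 1.56 FPKM in zone 1 and 530, 288 and 309.6 FPKM in zone 3. The 3 values of one zone lay far beyond the 3 of the other for all 4 markers.

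Among the 6 libraries compared, 1 stood apart. Zone 1 replicate 1 had the highest summed FPKM of the connective tissue and smooth muscle list, 3752 against 676 and 227 in the other zone 1 libraries and 177 to 305 in zone 3. It also held a summed 20.5 FPKM of the Y-linked genes Ddx3y, Eif2s3y, Kdm5d and Uty, although the label gives a female mouse. The other 5 libraries held 0 to 2.81 FPKM of these genes. Correlations of log2(FPKM + 1) were 0.851 to 0.955 among the zone 1 libraries and 0.952 to 0.97 among the zone 3 libraries. The part of zone 1 replicate 1 in the results was not tested beyond the counts and medians given without it.

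Differences were fitted with limma on log2(FPKM + 1) as zone 1 minus zone 3, and values after ± are standard errors unless named as SD. A gene was called at a Benjamini-Hochberg adjusted p under 0.05. Between the zones 214 genes were called, 1.89% of those tested. Of these, 91 were higher in zone 1 (0.804% of genes tested) and 123 were higher in zone 3 (1.09%). All 3 values of zone 1 exceeded all 3 of zone 3 in 1315 genes (11.6%), and the reverse held in 1320 genes (11.7%). The called genes higher in zone 3 were the more abundant, with a median FPKM of 40.7 in their own zone against 9.39 for those higher in zone 1. The absolute log2 difference reached 4 in 18 genes higher in zone 3 and in 10 higher in zone 1. Without zone 1 replicate 1 the counts were 60 and 72, without zone 3 replicate 2 they were 47 and 87, and without zone 3 replicate 3 they were 44 and 77. A filter on low values favours genes that are high in one zone. Of the called genes, 34 passed it through zone 1 alone and 21 through zone 3 alone. Of those named below, Cdh1, Ptgds, Sdsl, Dll4, Kif4, Slc51b and Sox9 passed through zone 1 alone, and Rdh9, Rhbg, Sult3a2, Lgr5, Sp5, Wnt2, Hsd3b5, Gzma, Olig1, Esrrg and Elovl3 through zone 3 alone.

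**Figure D1:**
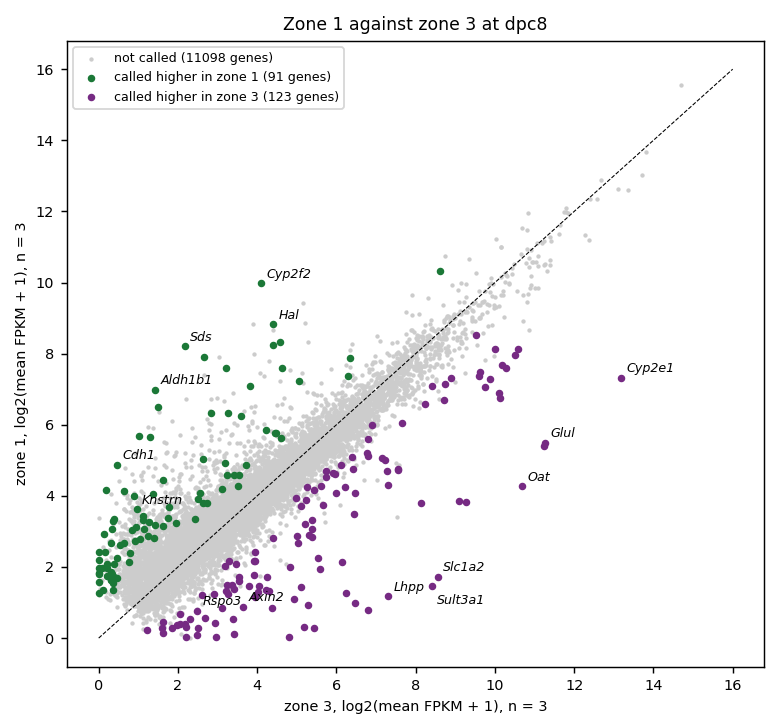
Mean expression of the 11312 tested genes at dpc8, with log2 of mean FPKM + 1 in zone 3 on the horizontal axis and in zone 1 on the vertical axis, 3 libraries a zone and equality as the dashed line. The 91 green genes were called higher in zone 1 and the 123 purple genes higher in zone 3, with Cyp2e1 farthest to the right among the called genes.

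Among the 12 called genes without overlap that had the largest differences towards zone 1 were enzymes of amino acid breakdown (Sds, Hal, Gls2) and of steroids (Hsd17b6, Cyp17a1), and Cyp2f2 at 5.87 ± 0.52. Sds, which turns serine into pyruvate, had the largest of these, 6.13 ± 0.60 (adjusted p = 6.73e-07, limma). Hal, histidine ammonia-lyase, the first step of histidine breakdown, read 209, 548 and 595 FPKM in zone 1 and 16.7, 29.6 and 14.4 FPKM in zone 3, a log2 difference of 4.34 ± 0.58. Gls2, the liver glutaminase that releases ammonia from glutamine, read 209.9, 312 and 378.5 FPKM against 31.1, 15.8 and 13.6 FPKM. The zones did not overlap for any of them, and replicate 1 was the lowest zone 1 library for all 3. Aldh1b1, a mitochondrial aldehyde dehydrogenase, read 55.2, 129 and 195 FPKM in zone 1 and 0.716, 2.6 and 1.75 FPKM in zone 3, with 5.45 ± 0.45 on the log2 scale. Hsd17b6, a hydroxysteroid dehydrogenase, differed by 5.21 ± 0.66, and Cyp17a1, a steroid hydroxylase, by 4.34 ± 0.63 (adjusted p = 1.59e-04, limma). Cdh1, E-cadherin, the adhesion protein of epithelial junctions, read 9.89, 30.8 and 44.2 FPKM in zone 1 and 0.26, 0.674 and 0.174 FPKM in zone 3. Replicate 1 was the lowest zone 1 library. Etnppl, which breaks down phosphoethanolamine, differed by 4.93 ± 0.53, the enoyl-CoA isomerase Eci3 by 4.71 ± 0.37 and Cryl1, a gulonate dehydrogenase, by 4.23 ± 0.45. Ptgds, a prostaglandin D synthase, read 10.4, 33.2 and 7.47 FPKM in zone 1 and 0, 0.395 and 0 FPKM in zone 3, so it was at 0 in a pair of zone 3 libraries.

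The 12 such genes with the largest differences towards zone 3 included Slc1a2, Glul, Oat and Rhbg of nitrogen handling, and sulfotransferase and P450 genes. Sult3a1, a sulfotransferase, had the largest difference of all, -6.95 ± 0.69 (adjusted p = 7.42e-07, limma), from 3.32, 0.742 and 1.29 FPKM in zone 1 to 424, 192 and 394.5 FPKM in zone 3. Its near-identical copy Sult3a2 differed by -4.85 ± 0.57, and how reads were divided between the pair is uncertain. Slc1a2 differed by -6.87 ± 0.48 and Glul by -5.91 ± 0.43 (adjusted p = 5.52e-09, limma). Oat, ornithine aminotransferase, which feeds glutamate to glutamine synthesis, read 35.8, 11.1 and 7.94 FPKM in zone 1 and 1653, 1435 and 1816 FPKM in zone 3. Its highest zone 1 value lay in replicate 1, and no value of one zone reached the other. Rhbg, an ammonium transporter, read 0.391, 0.243 and 0 FPKM in zone 1 and 36, 42 and 47.7 FPKM in zone 3, a log2 difference of -5.15 ± 0.38. Cyp2e1, the ethanol-inducible P450 enzyme, was the most abundant gene called, at 217, 186 and 75 FPKM in zone 1 and 10617, 9487 and 7751 FPKM in zone 3, a 58.3-fold difference of the means. Gulo, the last enzyme of vitamin C synthesis, differed by -5.25 ± 0.33, Lhpp, a phosphatase, by -6.13 ± 0.43, and the retinol dehydrogenase Rdh9 by -6.01 ± 0.55. Cyp2a5 differed by -5.88 ± 0.84, Cyp3a16 by -5.65 ± 0.65 and Cyp2c38 by -5.57 ± 0.55. All 24 of these genes, 12 in each direction, were still called when any single library of the 6 was dropped.

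**Figure D2:**
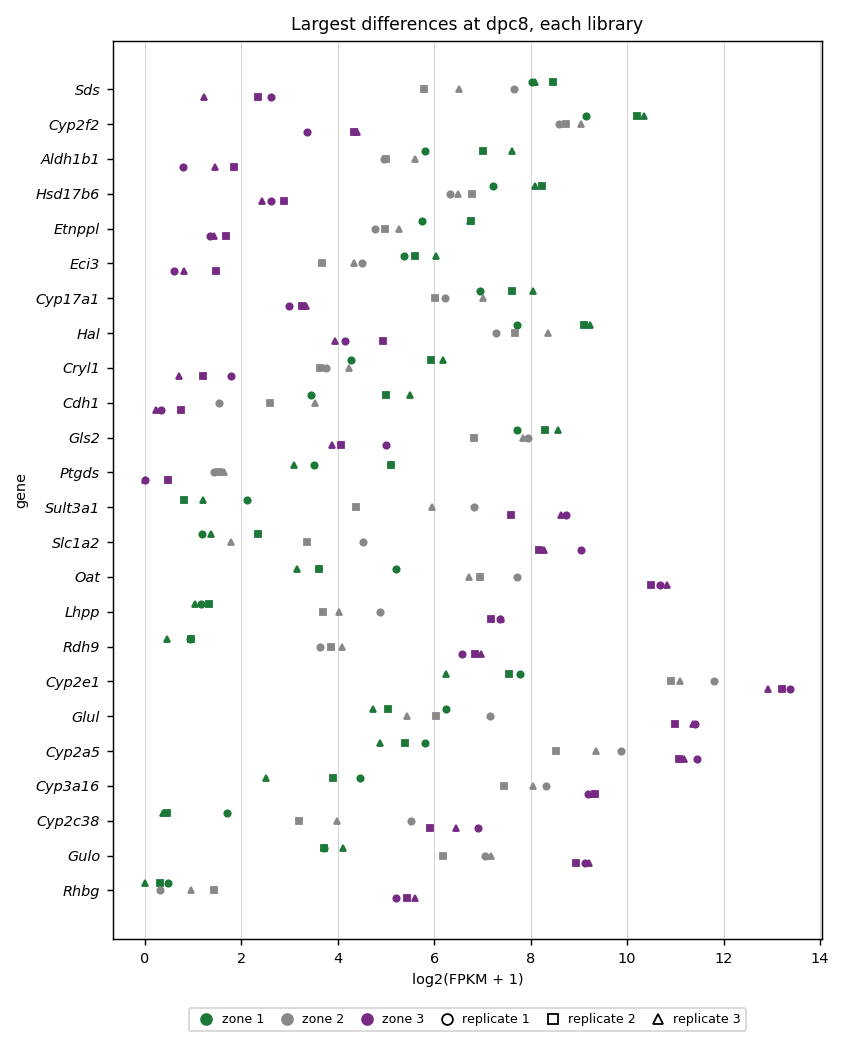
Expression of the 12 called genes without overlap that had the largest difference in each direction, as log2(FPKM + 1) on the horizontal axis, with a point for each dpc8 library, coloured by zone and shaped by replicate. Zones 1 and 3 do not overlap for any gene, and zone 2 lies between them for nearly all, close to zone 1 for Glul and Rhbg.

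Promoters of 3 called genes are shown because each carries the letters CTTTGAT, the core that TCF/LEF factors, the DNA-binding partners of beta-catenin, are known to bind. The sequences are from RefSeq (GRCm38.p6), run 5′ to 3′ on the gene's own strand and span 250 bases before to 50 bases after the annotated start. Capitals mark matches to CTTTGAT, or to TATAAA, on either strand. The window of Slc1a2 is chr2:102706188-102706487 (plus strand), that of Lect2 chr13:56548489-56548788 (minus strand) and that of Hal chr10:93488518-93488817 (plus strand). The RefSeq start used for Slc1a2 lies inside the gene as GENCODE draws it, from 102658659 to 102790784, so its window is at an internal start.
Slc1a2: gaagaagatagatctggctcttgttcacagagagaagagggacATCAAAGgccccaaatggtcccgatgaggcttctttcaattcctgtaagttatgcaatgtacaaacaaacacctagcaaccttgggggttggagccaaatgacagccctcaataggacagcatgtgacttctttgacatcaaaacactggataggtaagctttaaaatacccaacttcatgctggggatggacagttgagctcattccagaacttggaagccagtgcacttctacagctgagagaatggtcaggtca
Lect2: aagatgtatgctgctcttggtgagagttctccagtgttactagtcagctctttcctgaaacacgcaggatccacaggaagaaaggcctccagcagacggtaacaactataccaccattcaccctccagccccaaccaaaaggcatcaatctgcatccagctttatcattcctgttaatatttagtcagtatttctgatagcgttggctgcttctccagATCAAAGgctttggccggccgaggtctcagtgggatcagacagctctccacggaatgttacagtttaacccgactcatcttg
Hal: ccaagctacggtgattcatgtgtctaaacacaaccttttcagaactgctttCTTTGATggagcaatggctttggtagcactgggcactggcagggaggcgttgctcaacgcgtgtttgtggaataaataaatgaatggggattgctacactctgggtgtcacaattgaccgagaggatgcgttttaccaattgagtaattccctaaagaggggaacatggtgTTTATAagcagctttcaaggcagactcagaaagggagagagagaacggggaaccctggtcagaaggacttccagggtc
The first letter of the match stood 207 bases before this internal start in Slc1a2, 32 in Lect2 and 199 in Hal. Slc1a2 and Lect2 were higher in zone 3 and Hal was higher in zone 1. CTTTGAT was present in 2.58% of the 11556 promoters of 8997 tested genes with a RefSeq entry, in 3.57% of the 84 promoters of genes called higher in zone 1 and in 5.3% of the 132 promoters of genes called higher in zone 3. Some genes have several promoters, and counted by gene the shares were 3.11%, 4.23% and 5.15%, the last from 5 of 97 genes. The TATAAA letters were present in 7.51%, 10.7% and 21.2% of these promoters, and the Cyp2c and Cyp3a copies described below contribute to the last share. A match is only a description of the letters.

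The tested Wnt/beta-catenin targets were higher in zone 3, the direction in which 1.09% of all genes tested were called. Of 13 listed genes 11 passed the filter, 2 of them (Lgr5 and Sp5) through zone 3 alone, and these 11 were called higher in zone 3, with a median log2 difference of -2.21, against 0.04 over all genes tested. The other 2 listed genes, Lef1 and Apcdd1, were below the filter, with Lef1 at 0.447, 0.144 and 0.241 FPKM in zone 1 and 0.0287, 0.0704 and 0 FPKM in zone 3, and Apcdd1 at 2.59, 0.0546 and 0.133 FPKM against 0, 0.173 and 0.0455 FPKM. Without zone 1 replicate 1, or without zone 3 replicate 3, 7 of the 11 were called, and 6 when only the compared groups were fitted. After Glul came Lect2, a secreted hepatokine, which read 6.89, 9.87 and 22 FPKM in zone 1 and 268, 243 and 324 FPKM in zone 3. Tbx3, a T-box transcription factor, read 3.46, 3.83 and 1.32 FPKM in zone 1 and 34.2, 51 and 54.6 FPKM in zone 3. Axin2, the feedback inhibitor of the pathway, read 0.0362, 0.97 and 1.5 FPKM against 6.15, 13.1 and 15.4 FPKM, a log2 difference of -2.78 ± 0.53 (adjusted p = 0.00392, limma). Replicate 1 was the lowest zone 3 library for Tbx3 and for Axin2. The other 7, named after their values were seen, were the receptor Lgr5 (-2.50 ± 0.52), the Wnt deacylase Notum (-2.21 ± 0.47), the transcription factors Sp5 (-2.17 ± 0.24) and Tcf7 (-1.39 ± 0.34), the inhibitor Nkd1 (-1.91 ± 0.35) and the Wnt receptor ubiquitin ligases Rnf43 (-1.57 ± 0.38) and Znrf3 (-1.15 ± 0.24).

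Wnt ligands and genes of the vein endothelium differed in both directions. Of 18 listed genes 11 passed the filter. Of these, 4 were called higher in zone 3 and 1 higher in zone 1, against 1.09% and 0.804% of all genes tested. The count in zone 3 fell to 2 without zone 1 replicate 2 or without any 1 of the zone 3 libraries. Rspo3, the R-spondin that strengthens Wnt signalling, read 1.09, 0.497 and 0.528 FPKM in zone 1 and 4.46, 4.18 and 5.23 FPKM in zone 3. Wnt2 read 0.6, 0 and 0.0212 FPKM in zone 1 and 5.73, 5.6 and 2.65 FPKM in zone 3. Both genes were low, and Wnt2 passed the filter through zone 3 alone. The fatty acid carrier Fabp4 differed by -2.01 ± 0.44 and the cadherin Cdh13 by -1.82 ± 0.46, each called in 1 of the 6 fits leaving out a library. Dll4, a Notch ligand of arterial and portal endothelium, read 2.68, 4.11 and 3.5 FPKM in zone 1 and 0.864, 0.655 and 0.611 FPKM in zone 3, a log2 difference of 1.36 ± 0.32. Dll4 passed the filter through zone 1 alone and was called in 1 of the 6 fits leaving out a library.

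Most genes on the lists of known zonal markers were called, against 1.89% of all genes tested. Of 19 pericentral genes 18 were called higher in zone 3, with a median of -4.47, and the remaining gene, Por, the P450 reductase, differed by -1.07 ± 0.60. Of 19 periportal genes 11 were called higher in zone 1, with a median of 2.69, and all 19 differences were above 0, or 18 under quantile normalization. The periportal count was 17 with array weights or without the libraries carrying Y-linked FPKM. Dropping zone 1 replicate 1 or zone 3 replicate 2 left 16 of the pericentral genes called. In each list 2 genes had passed the filter through the higher zone alone. These lists hold genes known as zonal, so they check the dissection more than they describe dpc8. Ass1, argininosuccinate synthase, read 1374, 1479 and 2012 FPKM in zone 1 and 940.5, 512 and 485 FPKM in zone 3. It did not pass the test (1.38 ± 0.45, adjusted p = 0.15, limma), although the zones did not overlap. Cps1, which starts the urea cycle, read 764, 753 and 1157 FPKM in zone 1 against 793, 428 and 397 FPKM in zone 3, with zone 3 replicate 1 inside the zone 1 range. None of the 10 urea cycle genes tested was called, but 3 were called higher in zone 1 with array weights or without the libraries carrying Y-linked FPKM. Their median was 0.22, with 0.52 without zone 1 replicate 1 and -0.03 without zone 1 replicate 3.

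Counts for the amino acid lists are to be read beside the 1.89% called among all genes tested. Of 17 glutamine and glutamate genes tested, Slc1a2, Oat, Glul and Rhbg were called higher in zone 3 and Gls2 higher in zone 1, and 12 were not called. Rhbg passed the filter through zone 3 alone. Dropping any single library of the 6 left that count as it was. The breakdown of serine, glycine, threonine and histidine gave 4 calls higher in zone 1 of 19 tested, namely Sds, Hal, Sdsl and Uroc1. Sdsl, a serine dehydratase-like enzyme, read 5.48, 6.4 and 10.1 FPKM in zone 1 and 0.352, 0.277 and 0.146 FPKM in zone 3. Uroc1, urocanase, the step after Hal, read 149, 282 and 278 FPKM in zone 1 and 77.6, 83.3 and 80.9 FPKM in zone 3. Agxt2, an aminotransferase, was the 1 gene of the list called higher in zone 3 (-1.42 ± 0.36), and it was called in 1 of the 6 fits leaving out a library. Calls higher in zone 1 numbered 6 without zone 1 replicate 1 and 3 without any 1 of the other libraries. Of 19 genes of tyrosine and tryptophan breakdown none was called, and 13 had a difference below 0, among them Hpd at -1.05 ± 0.37.

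The cytochrome P450 list had 100 genes, of which 64 passed the filter, with 15 called higher in zone 3 and 2 higher in zone 1. Over all genes tested, 1.09% were called higher in zone 3 and 0.804% higher in zone 1. The median difference of the list was -0.79, and -0.40 without zone 1 replicate 1. The pair higher in zone 1 was Cyp2f2 and Cyp17a1. Cyp1a2, the caffeine-metabolising enzyme, read 33.8, 170.3 and 263 FPKM in zone 1 and 720.4, 1057 and 1031 FPKM in zone 3, with replicate 1 the lowest in both zones. Stretches holding at least 3 called genes were drawn between called genes, so the shares within them were largely fixed by how they were drawn. In a stretch of chromosome 2, 3 of the 8 tested genes were called higher in zone 1, Dll4 among them. In a stretch of chromosome 19 (39389556 to 40012243, mm10), 5 of the 7 tested genes were called higher in zone 3, namely Cyp2c38, Cyp2c39, Cyp2c67, Cyp2c69 and Cyp2c37. All 3 tested genes in a stretch of chromosome 5 (145436309 to 145720136) were called higher in zone 3 as well. They were Cyp3a16, at 21.1, 13.9 and 4.7 FPKM in zone 1 and 581, 649 and 626 FPKM in zone 3, and its neighbours Cyp3a41a (-4.14 ± 0.41) and Cyp3a41b (-4.37 ± 0.64). These families hold near-identical copies, and reads shared between copies make the value of any single gene uncertain.

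The promoters of the Cyp3a genes show how alike these copies are. Capitals mark CAAAGTCCA (a core bound by the liver factor HNF4A), TGTTTAC (FOXA) and TATAAA on either strand. Positions are on GRCm38.p6 (RefSeq, minus strand): Cyp3a16 at chr5:145469674-145469973, Cyp3a41a at chr5:145720087-145720386 and Cyp3a41b at chr5:145584681-145584980.
Cyp3a16: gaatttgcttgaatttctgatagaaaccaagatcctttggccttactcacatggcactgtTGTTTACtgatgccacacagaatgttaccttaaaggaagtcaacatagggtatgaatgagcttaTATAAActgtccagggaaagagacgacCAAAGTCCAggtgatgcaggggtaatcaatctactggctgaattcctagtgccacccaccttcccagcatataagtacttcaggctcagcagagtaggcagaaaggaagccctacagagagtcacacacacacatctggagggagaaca
Cyp3a41a: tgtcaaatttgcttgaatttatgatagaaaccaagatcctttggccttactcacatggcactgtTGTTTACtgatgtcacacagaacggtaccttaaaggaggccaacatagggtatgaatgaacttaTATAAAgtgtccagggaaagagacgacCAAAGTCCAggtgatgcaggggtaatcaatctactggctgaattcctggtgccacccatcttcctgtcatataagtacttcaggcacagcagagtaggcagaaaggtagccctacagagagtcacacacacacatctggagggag
Cyp3a41b: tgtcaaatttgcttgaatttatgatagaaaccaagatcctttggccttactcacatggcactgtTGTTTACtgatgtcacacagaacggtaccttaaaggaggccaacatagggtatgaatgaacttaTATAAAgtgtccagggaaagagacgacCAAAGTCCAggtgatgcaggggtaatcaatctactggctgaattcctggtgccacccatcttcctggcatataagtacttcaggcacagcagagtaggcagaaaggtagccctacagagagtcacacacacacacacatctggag
Cyp3a41a and Cyp3a41b were identical at 292 of 300 positions. Cyp3a16 and Cyp3a41a were identical at 280 of 296 positions after a shift of 4 bases. All 3 held the 3 marked motifs in the same order. CAAAGTCCA was present in 0.58% of all promoters in 2.38% of those of genes called higher in zone 1 and in 6.06% of those of genes called higher in zone 3, a share to which the Cyp3a and Cyp2c copies contribute. TGTTTAC was present in 2.8%, 1.19% and 6.06%, and Cyp2c38, Cyp2c39, Cyp3a16, Cyp3a41a and Cyp3a41b contribute to the last share.

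In the other enzyme families of detoxification 3 of 12 sulfotransferases, 3 of 19 UDP-glucuronosyltransferases, 2 of 22 glutathione S-transferases and 4 of 20 alcohol and aldehyde dehydrogenases were called, against 1.89% of all genes tested. Their median differences were -1.34 for sulfotransferases, -0.87 for UDP-glucuronosyltransferases, -0.63 for glutathione S-transferases and -0.39 for alcohol and aldehyde dehydrogenases. Dropping zone 1 replicate 1 gave -0.67, -0.48, -0.34 and -0.03. Of 12 sulfotransferases tested, Sult3a1 and Sult3a2 were called higher in zone 3 and Sult5a1 higher in zone 1, at 72.5, 74.1 and 76 FPKM in zone 1 and 25.1, 4.57 and 3.71 FPKM in zone 3. The even zone 1 values contrast with a zone 3 replicate 1 far above its pair, and the call was lost without any 1 of 5 of the 6 libraries. Among 19 UDP-glucuronosyltransferases, Ugt1a9 (2.01 ± 0.41) and Ugt1a8 (2.04 ± 0.46) were called higher in zone 1 and Ugt2b1 (-1.69 ± 0.42) higher in zone 3. None of the 3 was called without zone 1 replicate 2, 1 of the pair was called higher in zone 1 without zone 1 replicate 1, zone 1 replicate 3, zone 3 replicate 2 or zone 3 replicate 3, and the zone 3 call was kept in 1 of the 6 fits leaving out a library. The Ugt1a genes share exons, so their separate values are uncertain. Of 22 glutathione S-transferases, Gstm2 (-2.85 ± 0.34) and Gstm6 (-2.21 ± 0.37) were called higher in zone 3. Of 20 alcohol and aldehyde dehydrogenases, Aldh1a1, a retinal dehydrogenase (-2.41 ± 0.47), Adh4 (-2.21 ± 0.41) and Aldh3a2 (-2.02 ± 0.43) were called higher in zone 3 and Aldh1b1 higher in zone 1.

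Steroid enzymes and bile acid genes were called in both directions, though 18 of 24 and 28 of 30 differences were below 0. The medians were -0.52 and -0.57, and -0.41 and -0.18 without zone 1 replicate 1. Over all genes tested, 0.804% were called higher in zone 1 and 1.09% higher in zone 3. Of 24 sex-dimorphic and steroid enzymes, 3 were called higher in each zone. None was called higher in zone 3 without zone 1 replicate 1 or zone 3 replicate 3, and 1 was without zone 1 replicate 2. Hsd17b13, a lipid droplet enzyme, read 194.5, 387 and 381 FPKM in zone 1 and 22.8, 29.6 and 16.3 FPKM in zone 3. Hsd3b5 read 0, 0 and 0.0646 FPKM in zone 1 and 10.7, 1.47 and 7.98 FPKM in zone 3, so it was at or near 0 in zone 1 and spread widely in zone 3. Of 30 bile acid genes, 5 were called higher in zone 3 and 1, the bile acid exporter subunit Slc51b (1.22 ± 0.30), higher in zone 1. The count in zone 3 was 3 without zone 1 replicate 1 or zone 1 replicate 2, and Slc51b was called in 1 of the 6 fits leaving out a library. Slco1a1, an uptake transporter for organic anions, read 0.569, 1.75 and 1.98 FPKM in zone 1 and 91.7, 48.5 and 83.6 FPKM in zone 3. Slco1b2, of the same family, read 119, 214 and 205.5 FPKM against 799.8, 764 and 778 FPKM. Cyp7b1, of the acidic pathway of bile acid synthesis, differed by -2.39 ± 0.52, and Akr1c6 by -2.65 ± 0.57. Cyp7a1, the rate-limiting enzyme of bile acid synthesis, was singled out after its values were seen. It read 23.6, 18.7 and 20.6 FPKM in zone 1 and 134, 114 and 141 FPKM in zone 3 without overlap, and did not pass the test (adjusted p = 0.0972, limma).

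**Figure D3:**
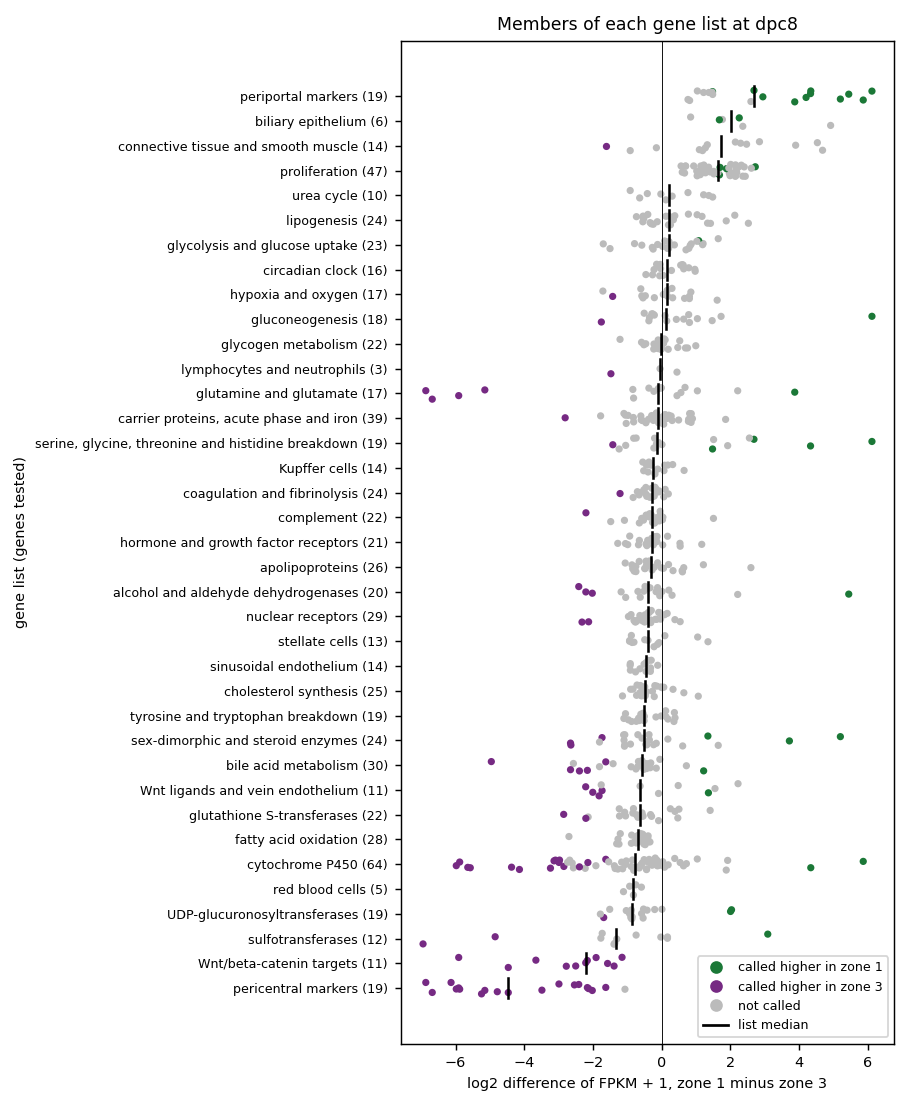
Fitted log2 difference of FPKM + 1, zone 1 minus zone 3, for every tested member of 37 gene lists, with the number tested in brackets and the list median as a bar. The Wnt/beta-catenin and pericentral lists lie below 0 and the periportal and proliferation lists above 0, with called members in green or purple.

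In the glucose and lipid pathways, counts are to be read beside the 1.89% called among all genes tested. Of 18 gluconeogenesis genes, Sds was called higher in zone 1 and the monocarboxylate transporter Slc16a7 higher in zone 3 (-1.76 ± 0.43), the latter in 1 of the 6 fits leaving out a library. Of 23 genes of glycolysis and glucose uptake 1 was called, Gpi1, glucose-6-phosphate isomerase, at 155, 166 and 173 FPKM in zone 1 and 66.7, 85.4 and 81 FPKM in zone 3. That call was lost without any 1 of the 6 libraries. Eno1 read 612, 514 and 511.5 FPKM against 224, 223 and 266 FPKM without overlap and was not called (adjusted p = 0.109, limma). No call was made among 22 glycogen genes (median -0.02), 24 lipogenesis genes (median 0.21) or 25 cholesterol synthesis genes (median -0.48). Leaving out 1 library, the medians ran from -0.15 to 0.0032, from 0.048 to 0.35 and from -0.71 to -0.22, and Pnpla3, named after its values were seen, was called higher in zone 1 without zone 1 replicate 2. Array weights and the replicate block each called 2 lipogenesis genes, and the block called 1 glycogen gene. Scd1, a fatty acid desaturase, read 754, 793 and 1069 FPKM in zone 1 and 525, 768 and 1046 FPKM in zone 3, with overlap. None of the 28 fatty acid oxidation genes was called, against 5 with the replicate block, 2 with array weights and 1 when only the compared groups were fitted. All 28 differences were below 0, with a median of -0.69, and -0.40 without zone 1 replicate 1. In 17 of the 28 all zone 3 values lay above all zone 1 values, which held for 11.7% of all genes tested.

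Among proteins secreted into plasma and hepatocyte regulators, most lists had 0 or 1 call, where 1.89% of all genes tested were called. Pros1, protein S of the anticoagulant system, was the 1 call among 24 coagulation genes (-1.21 ± 0.24), and C6 the 1 call among 22 complement genes (-2.21 ± 0.44), both higher in zone 3 and both lost without zone 3 replicate 1. Serpina7, the thyroxine-binding globulin, was the 1 call among 39 carrier, acute phase and iron genes, at 0.452, 1.51 and 1.78 FPKM in zone 1 and 12.1, 12 and 19.4 FPKM in zone 3. Albumin (Alb) read 33701, 60653 and 50468 FPKM in zone 1 and 27632, 26025 and 26297 FPKM in zone 3, without overlap, and did not pass the test (adjusted p = 0.506, limma). None of 26 apolipoprotein genes and none of 21 hormone and growth factor receptors was called, though 2 of the receptors were called higher in zone 3 with array weights or with the replicate block. Prlr, the prolactin receptor, read 317.5, 325 and 352 FPKM in zone 1 and 628.5, 459.9 and 486 FPKM in zone 3. Of 29 nuclear receptors and partners, Ahr, the dioxin receptor, was called higher in zone 3 at 5.38, 6.81 and 6.87 FPKM against 37.3, 27.5 and 28.9 FPKM, and Pparg, a lipid sensor, at 2.43, 1.4 and 1.47 FPKM against 10.9, 16.6 and 11.1 FPKM. Egln3, an oxygen-sensing prolyl hydroxylase, was the 1 of 17 hypoxia genes called (-1.43 ± 0.32), higher in zone 3. The Serpina7 and Egln3 calls were lost without zone 1 replicate 1 or zone 3 replicate 3. None of 16 clock genes was called, and zone 3 replicate 1 stood above its pair for Tef, at 213, 67.5 and 38.3 FPKM.

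The study asked where in the lobule hepatocytes divide during gestation, and the proliferation genes were therefore read in each library. Of 48 listed genes 47 passed the filter, 3 of them through zone 1 alone, and all 47 differences were above 0, with a median log2 difference of 1.64. In 36 of the 47 every zone 1 value exceeded every zone 3 value, which held for 11.6% of all genes tested. Those called were 4, all higher in zone 1, the direction in which 0.804% of all genes tested were called: Knstrn, Hmmr, Ccnd1 and Kif4. The count was 26 with array weights, which give less weight to variable libraries, 20 when replicate numbers were used as a block and 1 with a pseudocount of 0.1. Knstrn, a spindle and kinetochore protein, read 13.6, 10.3 and 9.99 FPKM in zone 1 and 1.62, 1.03 and 0.165 FPKM in zone 3. Hmmr, a hyaluronan receptor that also binds spindle microtubules, read 7.81, 3.26 and 5.86 FPKM in zone 1 and 2.04, 0.491 and 0.121 FPKM in zone 3, a log2 difference of 1.89 ± 0.48 (adjusted p = 0.0425, limma). Zone 1 replicate 1 was the highest library for both. Ccnd1, cyclin D1, read 78.3, 39.5 and 52.2 FPKM in zone 1 and 24.4, 20.6 and 8.06 FPKM in zone 3, and Kif4, a chromosome-bound kinesin, 6.66, 1.71 and 1.47 FPKM and 0.39, 0.0592 and 0.0469 FPKM. Mki67, the proliferation marker, read 22.9, 10.4 and 14.1 FPKM in zone 1 and 7.21, 1.33 and 0.924 FPKM in zone 3 without overlap and missed the threshold (adjusted p = 0.062, limma). The list did not hold every cell cycle gene called higher in zone 1, and Ccnf and Cdkn3, described below, were outside it. Both of these calls were lost without zone 1 replicate 1.

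Of the 6 libraries compared, zone 1 replicate 1 also had the highest connective tissue and smooth muscle sum. The summed FPKM of the proliferation list was 915, 296 and 442 in zone 1 replicates 1 to 3 and 191, 123 and 80.0 in zone 3. Without zone 1 replicate 1 the list median was 1.30 and no member was called. The count was also 0 without zone 3 replicate 2 or without zone 3 replicate 3, was 1 without zone 1 replicate 3, and was 7 without zone 3 replicate 1. It was 15 without the 6 libraries of the series whose summed Y-linked FPKM was 5 or more, of which zone 1 replicate 1 is the only one among those compared here.

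**Figure D4:**
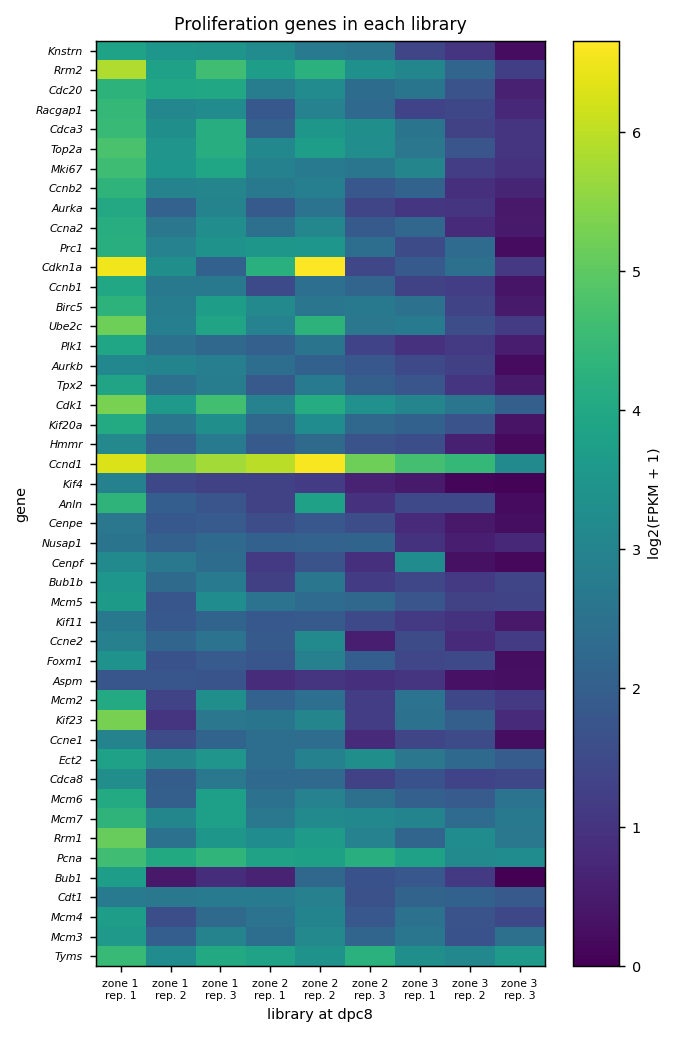
Expression of the 47 tested proliferation genes as log2(FPKM + 1), coloured, with a column for each dpc8 library and genes ordered by the difference between zones 1 and 3. Zone 1 replicate 1 is the brightest column for most genes and zone 3 replicate 3 is among the darkest.

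Markers of other cell types were read beside these results, and their counts are to be read beside the 1.89% called among all genes tested. In the connective tissue and smooth muscle list 14 of 20 genes were tested, with a median of 1.74, 0.72 without zone 1 replicate 1 and 2.66 without zone 1 replicate 3. Acta2, smooth muscle actin, read 1219, 143 and 5.5 FPKM in zone 1 and 0.131, 40.7 and 0.407 FPKM in zone 3, with overlap, and Tagln, transgelin, 915, 302.5 and 8.66 FPKM and 1.29, 57.9 and 0.59 FPKM. Dcn, decorin, was the 1 call of that list and was higher in zone 3 (-1.61 ± 0.33), a call lost without zone 1 replicate 1. The biliary list summed to 68.4, 119 and 163 FPKM in zone 1 and 4.42, 13.8 and 10.4 FPKM in zone 3. Of its 6 tested genes, Sox9, a duct transcription factor, was called at 4.38, 3.44 and 5.25 FPKM in zone 1 and 0, 0.259 and 0.076 FPKM in zone 3, and so was the ciliary gene Pkhd1 (1.68 ± 0.44), which was called in 2 of the 6 fits leaving out a library. Sox9 passed the filter through zone 1 alone. Summed FPKM was 262 to 372 in zone 1 and 294 to 430 in zone 3 for Kupffer cells, 143.5 to 184 and 188 to 335 for sinusoidal endothelium, and 296 to 331 and 383 to 444 for stellate cells. No gene of these 3 lists (14, 14 and 13 tested) was called. Of the stellate cell genes, 2 were called with array weights, 1 with the replicate block and 1 without the libraries carrying Y-linked FPKM. Red blood cell genes summed to 104 to 301 FPKM in zone 1 and 258 to 417 FPKM in zone 3 with none of 5 called. The lymphocyte and neutrophil list had 3 tested genes, of which Gzma, a granzyme, was called higher in zone 3 at 0.314, 0 and 0 FPKM against 2.13, 1.64 and 2.43 FPKM, a call lost without any 1 of the 6 libraries. The part of these cells in the differences above was not tested.

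The mean of zone 2 at the same stage lay between those of the outer zones for most called genes. These genes were chosen for a large difference between the outer zones, and the tests against zone 2 use the same zone 1 and zone 3 libraries, so nothing is read from an overlap of calls. Zone 2 replicate 2 stood apart, with 16.1 FPKM of Y-linked genes, 4941 FPKM of the connective tissue and smooth muscle list and 76.0 FPKM of the biliary list, against at most 0.802, 508 and 15.5 in the other zone 2 libraries. The mean log2 level of zone 2 was between theirs for 86 of the 91 genes higher in zone 1 and for 120 of the 123 higher in zone 3. On a scale from 0 at zone 3 to 1 at zone 1, the median position was 0.55 for the first set and 0.57 for the second. Glul stood at 0.85 and read 141, 64.6 and 42.2 FPKM in zone 2, and Rhbg stood at 0.88. Cyp3a16 stood at 0.24 and read 316, 174 and 263 FPKM, so its zone 2 level lay nearer to that of zone 3. On the periportal side Cyp2f2 stood at 0.81 with 382, 423 and 526.5 FPKM, and Ptgds at 0.37. In the tests against zone 2, 15 genes (0.133%) were called between zones 1 and 2 and 45 (0.398%) between zones 2 and 3. Of the 91 genes, 2 were also called between zones 1 and 2 and 17 between zones 2 and 3. Of the 123, the counts were 13 and 27. Without zone 2 replicate 2, 12 and 31 genes were called in these tests, among them 1 and 16 of the 91 and 11 and 15 of the 123. The median positions were then 0.53 and 0.50, with 87 and 121 genes between the outer zones.

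The same zone difference was read at the other stages. Its group means came from other libraries, but the fit over all 27 gave each gene a single estimate of the spread, so the calls at the 3 stages are not independent. Of the 91 genes higher in zone 1 at dpc8, 86 had the same sign in NP mice and 46 were called there in that direction, in which 0.557% of all tested genes were called. At dpc16 the counts were 75 and 39 (0.751% of all tested genes). Of the 123 genes higher in zone 3, 122 had the same sign and 86 were called in NP mice (0.902% of all tested genes), and 120 and 66 at dpc16 (0.822%). Without the libraries carrying Y-linked FPKM, the genes called were 43 and 82 in NP mice and 45 and 80 at dpc16. Neither test of the difference between stages called a gene in limma, dpc8 minus NP (0.0% of 11312 genes) or dpc8 minus dpc16 (0.0%). At an unadjusted p under 0.05 stood 262 genes (2.32%) and 648 genes (5.73%), where a share of 0.05 is expected if no gene differs. Both tests share the dpc8 libraries.

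Slc1a2 gave -6.87 ± 0.48 at dpc8, -6.77 in NP mice and -6.41 at dpc16. Glul gave -6.04 in NP mice and -4.00 at dpc16, and its difference between dpc8 and dpc16 was -1.91 with an unadjusted p of 0.00456 (adjusted p = 0.705, limma). Aldh1b1 gave 7.00 in NP mice and 8.17 at dpc16, and its difference between dpc8 and dpc16 was -2.72 (adjusted p = 0.292, limma). Hal gave 6.27 and 6.96, with -2.63 between dpc8 and dpc16 (adjusted p = 0.667). Cyp2f2 gave 8.06 and 8.26 at NP and dpc16, both above its 5.87 ± 0.52 at dpc8. Its mean zone 3 level was 16.1 ± 5.95 (SD, n = 3) FPKM at dpc8, 3.31 ± 3 FPKM in NP mice and 2.01 ± 1.16 FPKM at dpc16. Hmmr gave 0.20 in NP mice and -0.97 at dpc16, and Mki67 0.20 and -1.53. The zone difference of Mki67 at dpc8 minus that at dpc16 was 3.79 (adjusted p = 0.292, limma) and that of Hmmr was 2.86 (adjusted p = 0.314).

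The genes nearest to a difference between stages were not called. Against dpc16 they were Cdkn3, a cell cycle phosphatase (3.57, adjusted p = 0.112, limma), Cyp2c69 (2.41, adjusted p = 0.177) and Fam49a (-2.15, adjusted p = 0.292). Cdkn3 read 7.94, 4.86 and 6.34 FPKM in zone 1 and 2.78, 1.31 and 0 FPKM in zone 3 at dpc8. Against NP mice the smallest p belonged to Madd (-2.04), Xylt2 (-1.51) and the centrosome gene Cep295 (1.93), with every adjusted p at 0.9998 or above.

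**Figure D5:**
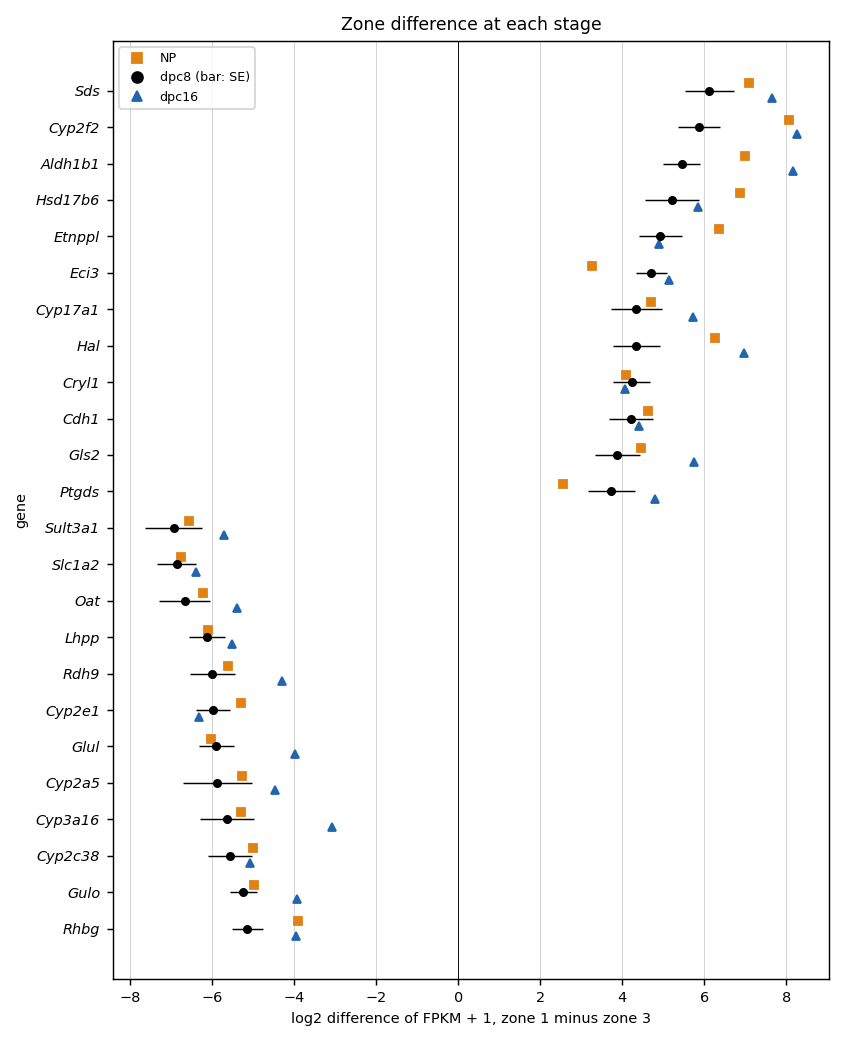
Fitted log2 difference of FPKM + 1, zone 1 minus zone 3, for the same 24 genes in NP mice (squares), at dpc8 (circles with SE) and at dpc16 (triangles). The sign is the same at all stages for each gene, and Aldh1b1 (5.45 at dpc8 and 8.17 at dpc16), Hal, Cyp3a16, Cyp2f2 and Glul show visible gaps between dpc8 and dpc16.

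Some calls lay just inside the threshold. In zone 1 they were Ccnf, cyclin F, at an adjusted p of 0.0498 (limma), the demethylase Alkbh1 at 0.0498 and Pkhd1 at 0.0497. In zone 3 they were Dcun1d1 at 0.0498, Sgms1, a sphingomyelin synthase, at 0.0498 and the transcription factor Olig1 at 0.0482. Each of these 6 was called in at most 2 of the 6 fits that left out a library. Of the 214 called genes, 36 of those higher in zone 1 and 61 of those higher in zone 3 were called in all 6 fits that left out 1 library.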

How the data were processed

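Lobular zones 1, 2 and 3 of NP, dpc8 and dpc16 livers were profiled by RNA-seq in 27 libraries (9 groups of 3). Per the labels, areas of 2 mm2 were laser-cut from acetone-fixed cryosections and 50 ng of total RNA (RIN above 7) per library was ribodepleted. The authors trimmed reads with cutadapt, aligned them to mm10 with HISAT2 2.1.0 and deposited gene-level FPKM from Cufflinks 2.2.1 and Cuffdiff. Raw counts were not used here. The deposited FPKM is per kilobase and per mapped read depth, so it follows the composition of each library. Low FPKM values fell on whole-read steps (93.1% to 96.5% of those checked, within 0.1 read, for an assumed default fragment length), which gave depth estimates of 11300000 to 23700000 reads for the 6 libraries compared, and 1 read per kilobase was worth 0.0421 to 0.0888 FPKM.

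Samples were grouped by their titles. Genes with FPKM of at least 1 in 3 or more of the 6 dpc8 zone 1 and zone 3 libraries were tested on log2(FPKM + 1) in R 4.3.3 with limma 3.58.1 (trend, robust, two-sided), with 9 group means over all 27 libraries. The calls at an adjusted p under 0.05 used Benjamini-Hochberg over all tested genes. Differences are on the log2(FPKM + 1) scale, which understates the change of low genes. The fitting procedure was tested on simulated data. Positions are from GENCODE vM21 (GRCm38, mm10), matched by gene ID for 11311 of 11312 tested genes, and promoters are from RefSeq.

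The comparison and the gene lists were chosen with earlier results of these data known. Genes were named by a rule: the 12 largest called differences per direction without overlap, up to 4 called members of each list (the 2 most abundant where under 2 were called), markers and genes followed by the study, the smallest p of the stage tests, and up to 3 calls per direction just inside the threshold. Por, Agxt2, Slc51b, Dll4, Cyp7a1, the Cyp2c and Cyp3a neighbours and the remaining Wnt targets were named after their values were seen, as were the sequences shown. One gene, Ambp, was dropped from the biliary list because hepatocytes make it. The alternatives were a pseudocount of 0.1, no filter, quantile normalization, median-of-ratios scaling, the compared groups alone, array weights, a replicate block and leaving out each library. Leaving out the libraries with Y-linked FPKM, and leaving out zone 2 replicate 2, were added after the data were seen. Same-numbered libraries of zones 1 and 3 at dpc8 were checked for pairing (correlations of their deviations of 0.0889, 0.0437 and 0.318) and were not treated as pairs.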

Additional observations from a re-analysis of the deposited data

How the results depend on the processing

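The 214 genes called between zones 1 and 3 became 756 with array weights and 329 when libraries carrying Y-linked FPKM were dropped, an alternative chosen after the data were seen. With the replicate number as a block the count was 469, although the numbers were not shown to pair the libraries. Leaving out 1 library gave 121 to 180. With array weights and with the block, calls were 26 and 29 for the cytochrome P450 list (17 before), 7 and 5 for glycolysis and glucose uptake (1 before), 11 and 10 for sex-dimorphic and steroid enzymes (6 before), 9 and 8 for serine, glycine, threonine and histidine breakdown (5 before), 9 and 9 for bile acid genes (6 before), 4 and 4 for the biliary list (2 before), 4 and 3 for complement, for carrier proteins and for connective tissue (1 before each), 3 and 1 for the urea cycle (0 before), 2 and 3 for apolipoproteins (0 before), 5 and 5 for UDP-glucuronosyltransferases (3 before), 3 and 5 for glutathione S-transferases (2 before), 4 and 3 for gluconeogenesis (2 before), 8 and 7 for Wnt ligands and vein endothelium (5 before), 5 and 4 for sulfotransferases (3 before), 2 and 2 for hypoxia genes (1 before), 2 and 1 for coagulation (1 before), 2 and 0 for tyrosine and tryptophan breakdown (0 before) and 1 and 0 for red blood cells (0 before). The difference between stages had no call in any setting against NP mice. Against dpc16 it had 0 calls, but 5 without the filter on low values, 20 with array weights, 5 with the replicate block, 2 when libraries carrying Y-linked FPKM were dropped and 0 to 1 when 1 library was left out. The 60 calls against zone 2 became 139 with array weights and 100 with the replicate block, and leaving out 1 library gave 39 to 65, the lowest without zone 3 replicate 3, and 43 without zone 2 replicate 2, also chosen after the data were seen. The cause of these changes was not tested, and the fits that leave libraries out also hold fewer samples. Quantile normalization moved the median difference of all tested genes from 0.04 to -0.06, and no named difference that was called changed sign under any alternative. Over the named genes and all alternatives, 1442 values kept their side of the threshold, 184 fell short of it and 26 newly passed it. FPKM of low genes rests on few reads, which limits what can be said of genes near 1 FPKM.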

Other observations

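Of the called genes, 66 of the 91 higher in zone 1 and 62 of the 123 higher in zone 3 belonged to none of the gene lists. The genes named here were singled out from these after their values were seen. Ctnnbip1, which binds beta-catenin and keeps it from TCF factors, read 6.37, 11.4 and 11.9 FPKM in zone 1 and 0.971, 1.96 and 0.574 FPKM in zone 3 (2.33 ± 0.37 on the log2 scale). Tcf7l1, a TCF family member that often acts as a repressor, read 7.6, 13.6 and 5.59 FPKM against 1.23, 1.12 and 1.14 FPKM, and Tle4, a Groucho co-repressor, 7.05, 9.77 and 6.9 FPKM against 1.91, 2.24 and 2.15 FPKM. Other inhibitors of the same pathway (Axin2, Nkd1, Notum, Rnf43 and Znrf3) were called higher in zone 3. The zones did not overlap for Ctnnbip1, Tcf7l1 or Tle4, and each was called in all 6 fits that left out 1 library. Id1, a target of BMP signalling, read 50.1, 24.7 and 21.6 FPKM in zone 1 and 3.61, 7.73 and 4.41 FPKM in zone 3, with replicate 1 the highest. Its fitted difference was 2.36 ± 0.44 at dpc8, 0.65 in NP mice and -0.01 at dpc16. Slc3a1, a subunit of the cystine transporter, and Sfxn1, a mitochondrial serine carrier, differed by 3.52 ± 0.51 and 3.10 ± 0.42.

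Among the genes higher in zone 3 outside the lists, the tight junction protein Cldn2 read 1.35, 4.7 and 5.2 FPKM in zone 1 and 35.2, 47.8 and 52.2 FPKM in zone 3. Avpr1a, the liver vasopressin receptor, read 1.74, 1.52 and 1.39 FPKM against 13.1, 17 and 23.2 FPKM. Blvrb, a biliverdin reductase, read 17.3, 22.2 and 35.3 FPKM against 136, 154.5 and 173 FPKM, and Alad, an enzyme of heme synthesis, 34.1, 49.8 and 57.8 FPKM against 118.5, 96.4 and 118 FPKM. Esrrg, an orphan nuclear receptor, and Elovl3, a fatty acid elongase, were at or near 0 in zone 1 and read 5.3, 3.41 and 5.15 FPKM and 6.04, 13.9 and 9.14 FPKM in zone 3. Slc16a10, a carrier of aromatic amino acids, differed by -2.38 ± 0.33, and Pon1, the paraoxonase of high density lipoprotein, by -1.94 ± 0.39. The glycerol channel Aqp9 differed by -1.71 ± 0.41. Alad and Aqp9 were each called in 1 of the 6 fits that left out 1 library.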
